A study of Mus musculus with 6 samples.

Results

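Imprinted growth regulators are genes read mainly from the copy inherited from 1 parent, and the 10 described here are Cdkn1c, Phlda2, Dlk1, Meg3, Peg3, Peg10, Mest, Plagl1, Ndn and Grb10. They were taken as a list of gene symbols, and each array probe whose RefSeq accession belonged to 1 of these genes was used, whatever its value. Of the 10 genes, 9 were matched by 13 probes, and Meg3 was matched by none and is not analysed here. A total of 11 probes of 8 genes passed the filter on dim probes (well above background on every array of at least 1 group), so 8 genes stood among the 19657 features tested. Both Peg3 probes failed that filter, so Peg3 is described without a test.

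Total RNA of mouse embryonic fibroblasts was labelled with Cy3 and hybridised to 6 one-colour Agilent arrays. The titles name 3 of them wild type and 3 Rap1 knock-out, Rap1 being a telomere protein encoded by Terf2ip. The labels give the same treatment for both groups: infection with the SV40 large T antigen, a viral protein that inactivates p53 and the retinoblastoma proteins, and with Cre recombinase, followed by growth in DMEM with puromycin. The knockout allele came from 129Sv/Pas embryonic stem cells, with exon 3 of the Rap1 gene between loxP sites, and the mice carrying it were bred with C57BL/6J animals. Embryo age and sex, the Rap1 allele in the wild-type cells and the number of embryos or cultures behind the arrays are not stated in the labels. The p-values below therefore measure only the spread between these samples, which may be technical in part.

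In genomic imprinting, DNA methylation set in the egg or sperm marks 1 parental copy of a control region, and the genes around it are then read mostly from a single copy. Maternally expressed genes of this kind tend to restrain growth of the embryo and placenta, and paternally expressed ones tend to promote it. Many of them are active in embryonic mesenchyme and are turned down after birth. Cdkn1c, Phlda2, Meg3 and, in most tissues, Grb10 are read from the maternal copy, and Dlk1, Peg3, Peg10, Mest, Plagl1 and Ndn from the paternal copy.

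Promoter windows of 300 bases (250 before to 50 after the start; RefSeq, GRCm38.p6) were given for 8 of the 10 genes, and not for Cdkn1c and Peg10. Short motifs were counted on both strands, none of which contains another. GGGCGG, a GC box, was in a window of 5 of the 8 genes (Mest, Ndn, Phlda2, Plagl1 and Grb10), and in 35.7% of all 32851 windows. TGACGTCA, the palindromic cyclic AMP response element, was in a window of Peg3 and of Meg3, and in 1.79% of all windows. TATAAA was in a window of Phlda2 and of Meg3, and in 13.6% of all. CCAAT was in a window of Peg3, Phlda2 and Meg3, and in 37.4% of all. Mest, Grb10 and Meg3 have more than 1 window each, so these counts of genes and the shares of windows are unlike measures. The stretches with the rarest motif are shown, and the TATAAA of the Phlda2 window as an example. A Meg3 window also held TATAAA, at −25 and, on the opposite strand, at −29, which is not shown. Capitals mark the motif, at position −178 from the start in Peg3 (chr7:6730581-6730606, minus strand), −57 in Meg3 (chr12:109540930-109540955, plus strand) and −30 in Phlda2 (chr7:143502540-143502563, minus strand).
Peg3: tgactccgtTGACGTCAactccgtgc
Meg3: agaatgcgcTGACGTCAaagaccacc
Phlda2: cggagtcctTATAAAgaccacgcc
The CpG count of the windows, a rough measure of how much sequence can be methylated there, had a median of 7 over all windows. It was 45 in 1 of the Grb10 windows and 9 in the other, 26 in Phlda2 and in Plagl1, 13 in Peg3, 11 in Ndn, 9 in Dlk1, 8 to 17 in the 3 Mest windows, and 13 and 1 in the Meg3 windows. No methylation was measured in these cells, and a motif match is a match of letters.

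The arrays set limits that touch every value below. Values below are on a relative log2 scale (processed signals in log2, less the 75th percentile on the same array) unless a processed signal is named. Terf2ip, the label check, had a mean of −1.74 ± 0.08 (SD, n = 3) in wild-type cells, and its probe was well above background on 0 of the 3 knockout arrays (limma, adjusted p = 0.00794, and 0.0652 when wild-type arrays 2 and 3 were averaged into 1). Wild-type arrays 2 and 3 were near-alike, with an SD of their log2 difference over the features tested of 0.25 against 0.83 to 1.25 for the other pairs. Wild-type array 1 and knockout array 1 were on slide 1 and the other 4 on slide 2, so the differences of the 8 genes tested are also given within each slide. All 11 fibroblast markers had a probe and 10 were well above background on every array, with a summed signal relative to the 75th percentile of 612 to 673 in wild type and 340.0 to 590.3 in knockout. Of those 10, 4 had differences above 0 and 6 below. Of the 11, 3 had groups that did not overlap, all lower in knockout, beside 5.88% of all features lower in that way. They were Pdgfra (−2.38, SE 0.81), Thy1 (−2.64, SE 1.12) and Fn1 (−0.31, SE 0.22), none past the adjusted threshold and named after their values were seen. On knockout array 1 Thy1 read −2.22, against 2.88 to 3.79 in wild type, and Pdgfra −1.48, against 2.40 to 2.92. The summed adipocyte markers were 9.90 to 15.6 in wild type and 1.43 to 3.71 in knockout, with Adipoq, Lep and Cfd above background on no array. The 4 adipocyte markers above background on every array had differences below 0. Plin1, above background on 0 wild-type and 3 knockout arrays, had a difference above 0 (1.16, SE 0.33). The epithelial markers summed to 2.40 to 3.31 in wild type and 4.11 to 13.1 in knockout, but of the 6 tested 4 had differences below 0, and Krt18 (1.53, SE 0.48) and Trp63 (−1.65, SE 0.30) lay apart between the groups in opposite directions, neither past the adjusted threshold (both named after their values were seen). The summed skeletal muscle, neural, blood, endothelial and trophoblast markers overlapped between the groups. The part of these cell type markers in the results below was not tested.

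None of the 8 imprinted growth regulators tested differed between knockout and wild-type cells past an adjusted p of 0.05 (limma, Benjamini-Hochberg over all features), where 0.0102% of all features did. By the probe of highest mean that stood for each gene, none reached an unadjusted p of 0.05 either, against 10.3% of all features, and in none did the 3 knockout arrays lie wholly above or below the 3 wild-type arrays, against 17.2% of all features (11.3% higher in knockout and 5.88% lower). Another Grb10 probe did both when each kept probe was its own feature, as described below. Without wild-type array 1, 3 of the 8 reached an unadjusted p of 0.05, as did 3545 of the 19657 features, and without knockout array 3, 1 did, as did 3876 features. Over the 7 genes above background on all 6 arrays (all but Peg10), 2 of limma's differences were above 0 and 5 below, with a median of −0.25 beside 0.07 over all such features. The spread between arrays of the same group was wide. Mest, Dlk1, Plagl1 and Peg3 read far higher on wild-type array 1 than on the other 2 wild-type arrays, and Dlk1 and Ndn also differed widely among the knockout arrays. In RNA from whole cultures, fewer cells expressing a gene and less RNA per cell cannot be told apart.

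**Figure D1:**
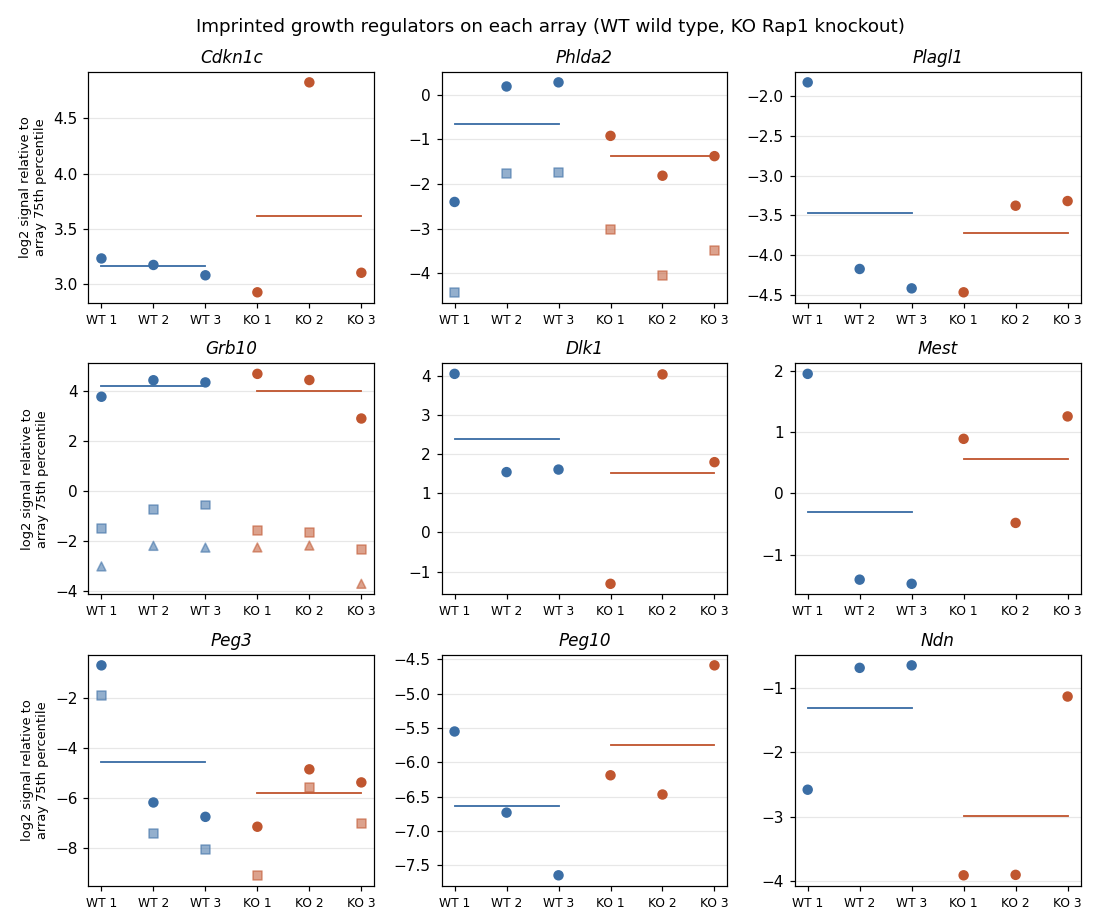
Relative log2 signal (y axis, scaled to each array's 75th percentile, a separate range for each gene) on the 3 wild-type arrays (blue) and the 3 knockout arrays (orange), with circles for the probe of highest mean, squares and triangles for a gene's other probes, and lines at the group means of the circles. The groups overlap for every circle, and wild-type array 1 stands above the other wild-type arrays for Plagl1, Dlk1, Mest and Peg3 and below them for Phlda2 and Ndn.

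Cdkn1c encodes p57, an inhibitor of cyclin-dependent kinases that takes cells out of the cell cycle. Its probe had processed signals of 10842, 9835 and 8739 on wild-type arrays 1 to 3 and of 6561, 23677 and 11524 on knockout arrays 1 to 3. The wild-type arrays were close together, and knockout array 2 alone stood apart, above all others. On the relative log2 scale the wild-type mean was 3.16 ± 0.08 and the knockout mean 3.62 ± 1.05 (SD, n = 3 each), a difference of 0.46 (SE 0.51, 95% interval −0.76 to 1.67, limma adjusted p = 0.694). The difference was −0.31 on slide 1 and 0.84 on slide 2, and it turned to −0.15 without knockout array 2.

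Phlda2, whose product is a small pleckstrin-homology protein that restrains growth of the placenta, lies near Cdkn1c on chromosome 7, with 1 gene between. The brighter of its 2 probes read −2.40, 0.19 and 0.28 in wild type and −0.92, −1.81 and −1.37 in knockout, from processed signals of 218, 1242 and 1255 and of 456, 238 and 517. Wild-type arrays 2 and 3 were highest, wild-type array 1 was lowest of all 6, and the knockout arrays lay between. The difference was −0.72 (SE 0.73, 95% interval −2.48 to 1.03, limma adjusted p = 0.665), made of 1.48 on slide 1 and −1.83 on slide 2. The second probe gave a difference of −0.87 and followed the first over the 6 arrays with a Pearson r of 0.997, so both probes showed the low value on wild-type array 1. Without that array the groups did not overlap (difference −1.60, adjusted p = 0.109), as was then so for 45.6% of all features.

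Grb10 encodes an adaptor that binds the insulin and insulin-like growth factor 1 receptors and dampens their signal. Its probe of highest mean read 3.78, 4.44 and 4.36 in wild type and 4.70, 4.45 and 2.91 in knockout. Knockout array 3 was lowest and knockout array 1 highest, so the wild-type arrays lay inside the knockout range. The difference was −0.17 (SE 0.50, 95% interval −1.37 to 1.02, limma adjusted p = 0.890), with 0.92 on slide 1 and −0.72 on slide 2, and it was 0.38 without knockout array 3. A second Grb10 probe followed the first (r = 0.978 over 6 arrays, difference −0.23). The third did not follow as closely (r = 0.644 and 0.713 with the other probes). It read −1.49, −0.72 and −0.55 in wild type and −1.56, −1.65 and −2.32 in knockout, with every knockout array below every wild-type array, although knockout array 1 and wild-type array 1 were nearly level. With each kept probe as its own feature, its difference was −0.92 (SE 0.35, limma unadjusted p = 0.0336, adjusted p = 0.502 over 25520 probes). The probes of Grb10 thus gave different group patterns, and the transcripts each one reads are not given in the sources used here.

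Plagl1 encodes a zinc finger transcription factor, also called Zac1, that arrests the cell cycle and acts on other imprinted genes. It read −1.82, −4.18 and −4.42 in wild type and −4.47, −3.38 and −3.32 in knockout. Its processed signals were 326, 60.4 and 48.3 in wild type and 39.0, 80.4 and 134 in knockout. After scaling, wild-type array 1 was 5.56-fold above the mean log2 level of the other wild-type arrays. The difference was −0.25 (SE 0.73, 95% interval −1.99 to 1.49, limma adjusted p = 0.891). Without wild-type array 1 it was 0.58, and slide 1 alone gave −2.65 against 0.95 on slide 2.

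Dlk1, a transmembrane protein of the Notch ligand family known as preadipocyte factor 1, holds back the maturation of fat cells. Among the genes tested here it varied most between arrays. Its processed signals were 19225, 3181 and 3155 in wild type and 348, 13787 and 4670 in knockout, and after scaling to the 75th percentiles the highest array was 41.4-fold above the lowest. Wild-type array 1 and knockout array 2 were high and nearly level, knockout array 1 was by far the lowest, and the remaining 3 were close to each other. The relative log2 means were 2.40 ± 1.43 and 1.51 ± 2.69 (SD, n = 3 each), with a difference of −0.89 (SE 1.37, 95% interval −4.17 to 2.38, limma adjusted p = 0.780). Slide 1 gave −5.37 and slide 2 gave 1.34, and leaving out knockout array 1 turned the difference to 0.52. The summed adipocyte markers were 15.6, 9.90 and 10.6 in wild type and 1.65, 3.71 and 1.43 in knockout. Like Dlk1 the sum was highest on wild-type array 1 and, within the knockout group, on knockout array 2. Knockout arrays 1 and 3, far apart for Dlk1, were close in the sum. Single markers differed. Within each group Cebpa peaked on the same array as the sum, Pparg only within wild type and Plin1 in neither group. Fabp4 was lowest of the wild-type arrays on array 1 (1.92, against 3.12 and 3.24), where Lpl was highest (2.95, against −1.20 and −1.31). Within the knockout group Fabp4 was highest on array 2 (1.72) and Lpl on array 3 (−1.85).

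Mest, also called Peg1, encodes an enzyme of the alpha/beta hydrolase fold and is known as a mark of growing mesoderm and of expanding fat tissue. It read 1.95, −1.41 and −1.48 in wild type and 0.89, −0.48 and 1.26 in knockout. Wild-type array 1 was highest (a processed signal of 4468, against 410 and 371 on wild-type arrays 2 and 3), and the 3 knockout arrays lay between them. The difference was 0.87 (SE 0.99, 95% interval −1.49 to 3.22, limma adjusted p = 0.700), with −1.06 on slide 1 and 1.83 on slide 2. When wild-type arrays 2 and 3 were averaged into 1 it was 0.30. Leaving out 1 array gave values from 0.28 (without wild-type array 3) to 2.00 (without wild-type array 1, adjusted p = 0.173).

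Peg3, a large zinc finger protein linked to p53-dependent cell death, tumour necrosis factor signalling and maternal behaviour, had its highest signal by far on wild-type array 1. Its first probe had processed signals of 724, 15.0 and 9.51 in wild type and 6.03, 28.9 and 32.2 in knockout, and was above background on 2 arrays of each group. The second had 310, 6.24 and 3.82 in wild type and 1.56, 17.5 and 10.2 in knockout, and was above background on 1 wild-type and 2 knockout arrays. Both probes put wild-type array 1 highest and knockout array 1 lowest (r = 0.988 over 6 arrays). Since neither was above background throughout a group, no test was made in the filtered fit. With no filter on dim probes, the difference was −1.26 (SE 1.58, limma adjusted p = 0.897).

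Peg10, a protein derived from the gag and pol genes of a retrotransposon and needed for the placenta, gave a weak signal. It read −5.55, −6.73 and −7.64 in wild type and −6.19, −6.47 and −4.59 in knockout, and was above background on 2 of the 3 wild-type and all 3 knockout arrays. It thus passed the filter on dim probes through the knockout group alone, where its mean was higher. Knockout array 3 was highest, at a processed signal of 55.9, and the other 5 arrays ran from 5.17 to 24.7. The difference was 0.89 (SE 0.68, 95% interval −0.73 to 2.52, limma adjusted p = 0.585), −0.64 on slide 1 and 1.66 on slide 2. After normexp background correction with quantile normalisation it was 0.23. Leaving out 1 array gave 0.31 without knockout array 3, 0.39 without wild-type array 3 and 1.44 without wild-type array 1.

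Ndn encodes necdin, a protein of the MAGE family that binds E2F1 and p53 and restrains proliferation, and it is 1 of the genes of the Prader-Willi region. It had the smallest p of the members. Its processed signals were 193, 678 and 660 in wild type and 57.4, 55.8 and 612 in knockout. Knockout arrays 1 and 2 were lowest and nearly level, and knockout array 3 stood above wild-type array 1, so the groups overlapped. The difference was −1.68 (SE 0.89, 95% interval −3.80 to 0.45, limma unadjusted p = 0.103, adjusted p = 0.511). It was −1.33 on slide 1 and −1.85 on slide 2. Leaving out each array in turn moved it between −2.60 and −1.21. The groups did not overlap without knockout array 3, as was then so for 42.2% of all features, or without wild-type array 1.

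Ndn was the only gene of the 8 with the same sign on both slides. The other 7 (87.5%), Peg10 among them, had opposite signs, against 39.4% of all features with a value on both slides. Slide 1 holds only 1 array of each group, so its difference has no spread of its own.

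**Figure D2:**
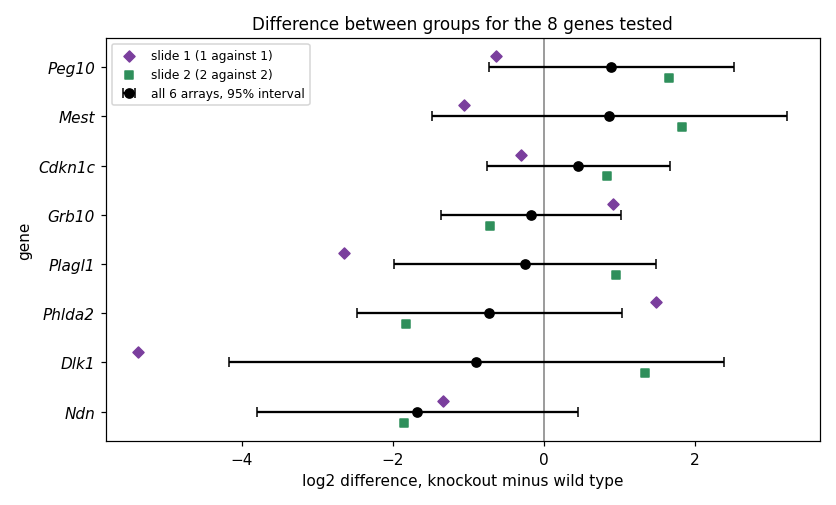
Knockout minus wild type (x axis, log2) for the 8 genes tested (y axis), with black points and bars for limma's difference and 95% interval over all 6 arrays, diamonds for slide 1 and squares for slide 2. Every interval crosses 0, and the slides lie on opposite sides of 0 for every gene but Ndn.

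The spread of these genes was set beside that of all features. The within-group SD (pooled over both groups, log2) had a median of 1.12 over the 8 genes and 0.39 over all features, and all 8 were above the latter. It was lowest for Grb10 at 0.73 and Cdkn1c at 0.74 (83.1 and 83.7 percentiles of all features) and highest for Ndn at 1.38, Mest at 1.53 and Dlk1 at 2.16 (95.3, 96.3 and 98.7 percentiles). Among the 18130 features above background on all 6 arrays the median was 0.37, and the 7 of these genes that were so (all but Peg10) had a median of 1.12. The highest array was at least 2 log2 units above the lowest for 6 of the 8 genes, Peg10 among them, and for 17.8% of all features. The median ratio of highest to lowest array was 6.42-fold for those 7 genes and 2.08-fold over the features above background on all 6 arrays. A wide spread was not particular to the growth regulators. Among cell type markers above background on all 6 arrays, the median within-group SD was 1.15 over 4 adipocyte and 0.75 over 10 fibroblast markers. It was 1.01 over 2 endothelial, 0.76 over 3 neural, 0.58 over 6 epithelial and 0.26 over 3 blood markers, and 1.00 for 1 muscle marker.

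**Figure D3:**
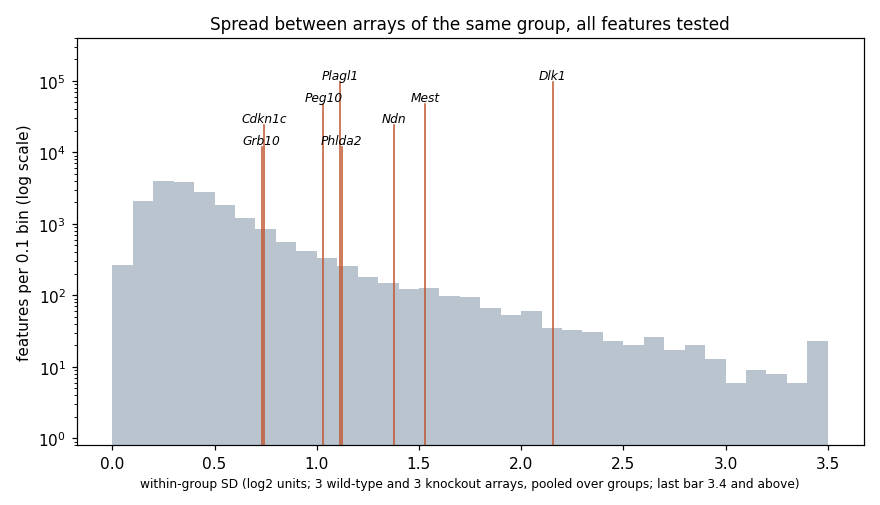
Number of features (y axis, log scale) by within-group SD of log2 signal (x axis, bins of 0.1) over all 19657 features tested, with lines at the 8 growth regulators. The lines run from 0.73 for Grb10 to 2.16 for Dlk1, all to the right of the all-feature median of 0.39.

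Particular arrays carried the extremes. Over the 9 genes with a probe (for Peg3 and the rest, the probe of highest mean), wild-type array 1 was highest for 4, namely Dlk1, Peg3, Mest and Plagl1, and it was highest for 9.49% of all features. Knockout array 1 was lowest for 5, namely Cdkn1c, Dlk1, Peg3, Plagl1 and Ndn, and for 23.6% of all features. It was highest for 1 of the 9 and for 30.8% of all features. Wild-type array 3 was highest for 2 and lowest for 2, beside 11.9% and 12.2% of all features. Peg3 failed the filter on dim probes and is not among the features behind these shares. With wild-type arrays 2 and 3 averaged into 1, the 8 differences were 0.44 for Cdkn1c, −0.29 for Phlda2, −1.31 for Dlk1, 0.62 for Peg10, 0.30 for Mest, −0.66 for Plagl1, −1.36 for Ndn and −0.07 for Grb10, with limma adjusted p between 0.936 and 0.988. In that fit 0 of all features passed (692 at an unadjusted p under 0.05).

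Genes of the same imprinted clusters were compared array by array with the growth regulators, by their distance from each gene's mean over the 6 arrays. Places on the chromosome are given as the number of genes between. Only protein-coding genes and the cluster genes named here were counted, so other non-coding genes may lie between. Beside Phlda2, with no gene between, lies Slc22a18, a solute carrier, which read −3.06, −0.96 and −1.01 in wild type and −0.51, −2.54 and −2.91 in knockout. Like Phlda2 it was low on wild-type array 1, high on wild-type arrays 2 and 3 and low on knockout arrays 2 and 3, but it was highest on knockout array 1, where Phlda2 was near its mean. Cdkn1c, with 1 gene between it and Phlda2, had its single high value on knockout array 2. Igf2, the insulin-like growth factor of fetal growth, lies 8 genes from Cdkn1c. It read 2.63, 2.94 and 2.64 in wild type and −2.20, 1.23 and 0.85 in knockout, with all knockout arrays lower (difference −2.78, SE 0.87, limma adjusted p = 0.471).

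In the Prader-Willi region, Mkrn3, a ubiquitin ligase with 1 gene between it and Ndn, read −5.27, −3.61 and −3.57 in wild type and −7.97, −4.80 and −3.46 in knockout. Snrpn, a spliceosome protein gene, read −3.98, −1.20 and −1.12 in wild type and −5.66, −2.12 and −2.62 in knockout. Both were lowest on knockout array 1 and next lowest on wild-type array 1. Peg12, named after its values were seen, showed that order as well (−3.01, −0.67 and −0.81, then −3.85, −1.31 and −0.66). Ndn differed from these 3 on knockout array 2, where it was as low as on knockout array 1. The differences were −1.26 for Mkrn3 (SE 1.14), −1.36 for Snrpn (SE 1.14) and −0.44 for Peg12 (SE 0.97), and none passed the test. The low on knockout array 1 was not particular to this region. That array was lowest for 23.6% of all features, and for Igf2, Dio3, Dlk1, Peg3, Plagl1, Cobl and Cdkn1c of other clusters.

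Dio3, the deiodinase that inactivates thyroid hormone, lies 3 genes from Dlk1 and did not share its high values: it read −0.44, 0.79 and 0.92 in wild type and −1.88, 0.03 and −1.13 in knockout (difference −1.42, SE 0.58, limma adjusted p = 0.486). Both Dlk1 and Dio3 were lowest on knockout array 1. Sgce, the sarcoglycan gene adjacent to Peg10, stayed within 3.71 to 4.73 on all arrays (difference −0.38, SE 0.29), and Copg2, a coat protein gene adjacent to Mest, within 0.59 to 1.43 (−0.27, SE 0.31). They lacked the wide swings of their neighbours, of which Mest was above background on every array but Peg10 was weak (processed signals of 5.17 to 55.9). Asb4, 5 genes from Peg10 and named after its values were seen, had wide ones: 1.17, −3.56 and −3.49 in wild type and −3.44, −5.92 and 3.66 in knockout.

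Beside Peg3, Usp29 was above background on 1 array and Zim1 on none. The Usp29 value above the others, −5.36, was on wild-type array 1, as for Peg3, and its other 5 values lay between −9.30 and −8.29. Cobl, an actin nucleator adjacent to Grb10, read −1.90, −2.64 and −2.80 in wild type and −4.95, −4.02 and −3.45 in knockout, with no overlap (difference −1.69, SE 0.44, limma adjusted p = 0.403). No probe was matched to H19, Rtl1, Rian or Magel2, which are not analysed here.

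**Figure D4:**
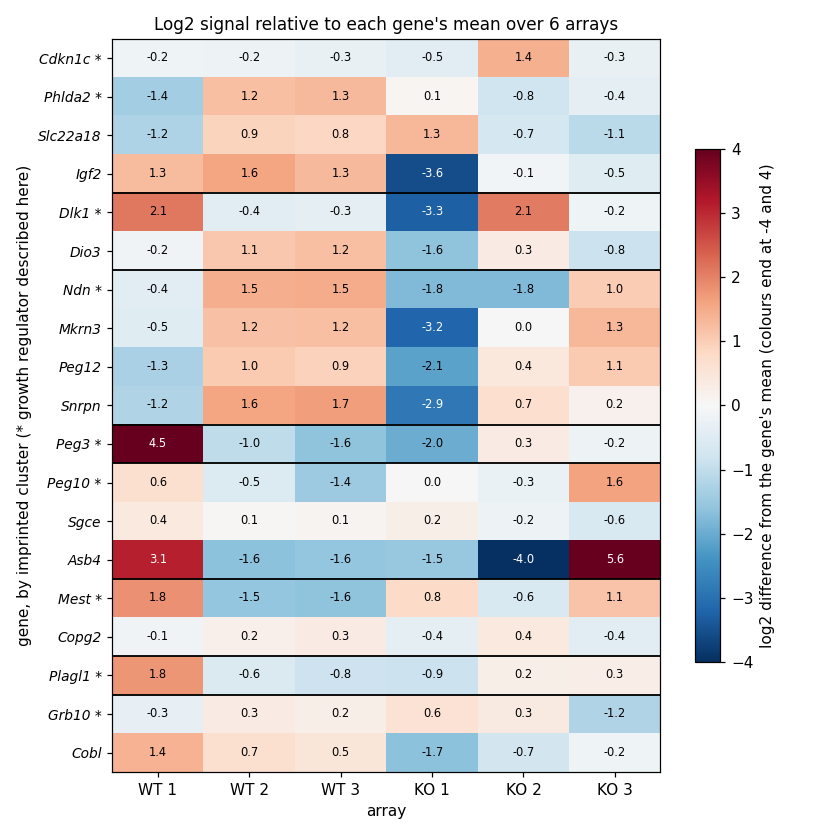
Log2 signal on each array (x axis) relative to the gene's mean over the 6 arrays (colour and printed value), for 9 growth regulators (asterisks) and measured genes of their imprinted clusters (y axis, lines between clusters). Peg3 at 4.5 on wild-type array 1 and Asb4 at 5.6 on knockout array 3 are the highest values, and the Prader-Willi genes Ndn, Mkrn3, Peg12 and Snrpn are all low on knockout array 1. Genes of other clusters, such as Igf2, Dlk1 and Dio3, are also lowest there.

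The wider family of imprinted genes was read from a list of 58 others, of which 46 had a probe and 37 were tested. None passed the adjusted test, where 0.0102% of all features did. In limma's fit, 4 had an unadjusted p under 0.05, all lower in knockout, where 4.66% of all features were lower at that p. Likewise 4 had groups that did not overlap, all lower, beside 5.88% of all features lower in that way. Of the 37, 4 (Rasgrf1, Mkrn3, Tspan32 and Nnat) had passed the filter on dim probes only through the wild-type group, and all 4 had differences below 0. Of the 33 above background on all 6 arrays, 13 differences were above 0 and 20 below, with a median of −0.24 beside 0.07 over all such features. After Cobl and Igf2, the smallest p belonged to Atp10a, a phospholipid-transporting ATPase (−0.87, SE 0.27, adjusted p = 0.471, groups apart), to Dio3 and to Rasgrf1, a Ras exchange factor (−1.96, SE 1.02, adjusted p = 0.507). The median within-group SD of the list was 0.57, between that of the growth regulators and that of all features.

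Among 17 genes that set or keep imprints, 12 were tested and none passed. The 5 of smallest p were Dnmt3l, the cofactor of de novo DNA methylation (difference −0.88, SE 0.22, limma adjusted p = 0.370), Tet2, an enzyme that oxidises methylcytosine (−0.98, SE 0.41), the maintenance methyltransferase Dnmt1 (0.57, SE 0.26), Zfp57, a zinc finger protein that guards imprints (−0.54, SE 0.27), and the de novo methyltransferase Dnmt3b (0.67, SE 0.37). Groups did not overlap for Dnmt3l, Tet2 and Zfp57, lower in knockout, and for Dnmt1, higher, that is 3 lower and 1 higher of 12, beside 5.88% and 11.3% of all features. The median difference of this list was 0.16 and its median within-group SD 0.33.

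Partners of the growth regulators in the cell cycle, Notch, insulin and p53 pathways formed a list of 25, of which 23 were tested and none passed. The 5 of smallest p were Hey1 and Hes1, both transcriptional targets of Notch, Ccne1, the cyclin partner of Cdk2 that p57 inhibits, Traf2, a tumour necrosis factor receptor adaptor, and E2f1, which necdin binds. Hey1 was higher on every knockout array (difference 1.81, SE 0.54, limma adjusted p = 0.468) and Hes1 lower on every one (−0.84, SE 0.29, adjusted p = 0.474). Ccne1 (0.70, SE 0.25) and E2f1 (0.51, SE 0.24) were higher on every knockout array, and Traf2 overlapped (0.59, SE 0.28). In this list 4 genes were higher and 1 lower with no overlap, beside 11.3% and 5.88% of all features. The list had a median difference of 0.15 and a median within-group SD of 0.39, level with all features.

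Since Ndn had the smallest p of the growth regulators, the named features most like it over the 6 arrays were listed, as a description over arrays that share slides and include the near-alike pair. They were Pnn (r = 0.998), Mterf2 (0.998), Depdc1a (0.997), Tmed5 (0.996) and Zfp322a (0.995). Their group differences were smaller in size than that of Ndn: −0.52 for Pnn, −0.53 for Mterf2, −0.70 for Depdc1a, −1.13 for Tmed5 and −0.57 for Zfp322a, against −1.68 for Ndn. None passed the test.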

How the data were processed

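Each deposited scanner file gives, per the file headers, intensity values from Feature Extraction software (version 10.5.1.1): for every spot a processed signal from which background had been taken off, and flags. A deposited table of log2 values for these arrays, for which the submitters' processing notes name limma, served as an alternative; its knockout columns 1, 2 and 3 matched scanner files 2, 3 and 1, so replicate numbers and slides here are those of the scanner files. Between 61.6% and 67.0% of 41174 probes per array were well above background, and the number of arrays limits the precision. Control and outlier spots were left out, and no spot was saturated.

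Processed signals were put on the log2 scale and each array's 75th percentile was subtracted. The filter on dim probes left 25520, and the brightest probe on average stood for a gene. Names came from RefSeq accessions (table of GRCm38.p6, 23374 probes matched). The files name mouse build mm8, so the table gave only names and gene order, the latter over protein-coding genes and the cluster genes named. Groups were compared with limma 3.58.1 (R 4.3.3; linear model with moderated variance, two-sided, Benjamini-Hochberg over 19657 features, threshold 0.05). The fit was also run on simulated data with independent noise, no slides and no near-alike arrays. That run checks the code and not the p-values of these data.

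The growth regulators and the gene lists were chosen with earlier results of these data known. The text names all of them with every probe, Terf2ip, the 5 genes of smallest p in each other list, measured neighbours in the same clusters, and the 5 features most correlated with the gene of smallest p. Peg12, Asb4, Nnat, Tspan32, Krt18, Trp63, Fabp4, Lpl, Cebpa, Pparg, Plin1, Pdgfra, Thy1 and Fn1 were named after their values were seen. Alternatives were other background correction, scaling, filters, probe rules and variance models, the value table, a block for the replicate number or for the slide, and fits with 1 array removed. Averaging wild-type arrays 2 and 3 and treating each kept probe as a feature were chosen after seeing the data. Deviations of same-numbered arrays from their group means correlated at 0.01, 0.05 and −0.08. These values are not independent, since wild-type arrays 2 and 3 are near-alike, and they cannot settle whether the numbers pair arrays. The knockout numbers also differ between the scanner files and the value table. The numbers were not treated as pairs in the main fit.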

Additional observations from a re-analysis of the deposited data

How the results depend on the processing

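Under 17 alternatives, 6 of which left out 1 array, 130 of 135 differences of the growth regulators kept their direction, and in none did one pass the adjusted threshold (limma). The other filters, the variance model and the blocks returned the same difference as the main fit for every gene they kept. So did the mean of a gene's probes for genes with a single kept probe. The agreement of direction under these settings therefore says nothing of stability. The 5 exceptions came from leaving out 1 array: over those fits Cdkn1c ran from −0.15 (without knockout array 2) to 0.80, Dlk1 from −2.16 to 0.52 (without knockout array 1), Plagl1 from −0.72 to 0.58 (wild-type array 1 removed; 0.12 without knockout array 1) and Grb10 from −0.51 to 0.38 (without knockout array 3). Genes of the 8 with groups that did not overlap ran from 0 to 4 when 1 array was left out: 4 without wild-type array 1 (Mest and Peg10 higher, Ndn and Phlda2 lower), beside 45.6% of all features, and 2 without knockout array 3 (Grb10 higher, Ndn lower), beside 42.2%. Over all features, 2 passed the threshold, and 4 did with the mean of a gene's probes, 0 with probes above background on all 6 arrays, 0 with the replicate block (2354 at an unadjusted p under 0.05, with 1 of the 8 genes among them), 0 with the slide block (3483) and 0 with wild-type arrays 2 and 3 averaged (692). Leaving out 1 array gave 0 to 64, with 64 without wild-type array 1. The replicate block changed no call of the 8 genes. The median of all features moved by 0.11 with median scaling and by −0.15 with no filter on dim probes. The filter on all 6 arrays removed Peg10, and on weak probes such as Peg10 and Peg3 the signal over background limits what can be read. The causes were not tested.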
